A study of Mus musculus with 10 samples.

Results

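The transcripts described here have coding sequences longer than 8 kb. They were chosen as protein-coding transcripts with 1 listed open reading frame (ORF) of more than 8000 nt and a mean of at least 100 normalized control footprints on that ORF. Of 152 such long ORFs, 110 reached the control cutoff, out of 8459 coding transcripts that did so at any length and 15269 transcripts listed in all. They were thus selected on ORF length and on the measured control footprints, so these values are given as a description.

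The data are ribosome profiling libraries of CGR8 cells, a mouse embryonic stem (ES) cell line of strain 129 grown without feeder cells on gelatin with leukemia inhibitory factor. There were 2 libraries each of untreated control cells, of cells given 1 µM DMDA-PatA for 10 min, of cells given 2 µg/ml harringtonine for 10 min and of cells given 0.2 mg/ml puromycin for 20 min. A further 2 libraries held fragmented whole transcriptome RNA of control cells. DMSO was equalized across the samples and all lysates held cycloheximide at 100 µg/ml, so the controls shared both, and as puromycin acted for longer, its agent and its time cannot be told apart in any comparison with it. The study calls the replicates biological, and a p-value measures the spread between these libraries only.

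A ribosome protects a short piece of mRNA from RNAse, and counting such footprints along an ORF shows how many ribosomes were on it. A ribosome that has already started must travel the whole coding sequence before it leaves, so a long coding sequence carries ribosomes that began long before the cells were lysed. DMDA-PatA (desmethyl, desamino-pateamine A) acts on the helicase eIF4A, which prepares mRNA for the scanning ribosome. Harringtonine binds in the A site of the ribosome and acts mostly, though not exclusively, on ribosomes that are beginning a chain. Puromycin resembles the end of a charged tRNA and ends the growing chain wherever the ribosome stands.

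The longest coding sequence was that of Dst (23151 nt) and the shortest that of Itpr3 (8010 nt), with a median of 9423 nt. Just inside the length limit lay Itpr3, Gcn1l1 (8013 nt) and Col6a3 (8031 nt), and just outside it Flna (7941 nt) and Bahcc1 (7929 nt). Just inside the control cutoff lay Tex15 (102 footprints), Hmcn1 (111) and Celsr3 (115), and just outside it Cubn (84.7), Reln (81.1) and Piezo2 (77.6). The ORF length equalled the coding length of the GENCODE M21 annotation in 104 of the 110 and differed by at most 33 nt in the other 6.

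The 5′ UTR and the ORF were counted separately, so the start codon divides the 2 readouts used below. For 83 of the 110 the listed ORF began with ATG and ended just before a stop codon in M21, and for these the start can be placed on GRCm38. The following 27 bases around the start codon (9 before it, the start codon in capitals and the bases after it) belong to transcripts on which the results turn, 5′ to 3′ on the coding strand. Dst and Macf1 are the longest, and Mdn1, Lrp2 and Ubr4 differed most between DMDA-PatA and puromycin. Adgrv1 and Hydin kept small shares for their length with DMDA-PatA.
Dst, chr1:33908263-33908289, plus strand: gcccgcaccATGatcgccgccgctttc
Macf1, chr4:123684172-123684198, minus strand: gcttggaccATGtcttcctctgatgaa
Mdn1, chr4:32657242-32657268, plus strand: ccggagactATGgagcacctctctgtg
Lrp2, chr2:69585876-69585902, minus strand: gtctccgcgATGgagcgcggggccgcg
Ubr4, chr4:139380678-139380704, plus strand: cgacgaaagATGgcgacgagcggcggc
Adgrv1, chr13:81633011-81633037, minus strand: ggcacgcagATGtcggtgacctcagaa
Hydin, chr8:110267327-110267353, plus strand: gttctcaaaATGaccctgaagatcaaa

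An A or G stood 3 bases before the start codon in 71 of the 79 long coding sequences with a listed upstream base (89.9%), against 86.6% of all coding transcripts at the same control cutoff. A G followed the start codon in 60.8%, against 54.5%. Both bases were present in 54.4%, against 47.4%. The median GC content of the long coding sequences was 49.9%, against 52.9%.

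Depth on these ORFs differed between conditions. As whole reads recovered from the normalized values, both control libraries were deep (222592 and 231858), the DMDA-PatA pair held 28658 and 28897, the harringtonine pair 28051 and 19388, and the puromycin pair only 5525 and 10056. Transcriptome reads numbered 1126558 and 2545738. The median transcript had 26.5 and 46 reads in the puromycin libraries, 65 and 67 with DMDA-PatA, and 29 transcripts had 10 reads or fewer in at least 1 drug library. These numbers cover counting error only.

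All 9 ES cell markers were present, with summed ORF footprints of 43205 and 40315 in the control libraries, Pou5f1 and Nanog among them. The 4 fibroblast markers listed (Col1a1, Col1a2, Postn and Thy1, none at 0) summed to 22631 and 17002 control footprints. Under the drugs the sum was 662 and 1159 (DMDA-PatA), 3264 and 1823 (harringtonine) or 4740 and 4956 (puromycin). Their transcriptome sum was 174904 and 179515, where Col1a1 alone had 132308 and 136627 against 9296 and 7696 for Pou5f1. The fibroblast sum was lower in control 2 than in control 1, as were the ES cell sum and 106 of the 110 long coding sequences, and the part of such cells in the values below was not tested. In such bulk libraries fewer cells of a type and less RNA per cell cannot be told apart. The endoderm markers (4 genes) summed to 132 and 82.5 in the control footprints, the mesoderm markers (3 genes) to 770 and 782 and the neural markers (3 genes) to 2028 and 1929.

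All 3 drugs lowered ORF footprints on these transcripts. Lower footprints than the control were called on 110 of the 110 with DMDA-PatA (99.3% of all 12499 features tested were called lower), on 108 with harringtonine (92.9%) and on 110 with puromycin (90.1%), by edgeR's quasi-likelihood test at an adjusted p of 0.05. Control footprints entered the rule, and nothing is read from these counts. The exceptions with harringtonine were Dst (log2 change of -0.87 ± 0.44 SE, adjusted p = 0.052) and Ahnak (-0.63 ± 0.44, adjusted p = 0.17), named after their values were seen.

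What differed with length was the share of footprints left, meaning the mean normalized ORF value with a drug as a percentage of the control mean. Over the 110 transcripts the median share was 5.54% with DMDA-PatA (4.33% for library 1 of the drug over control 1 and 7.16% for library 2 over control 2, called replicates 1 and 2 below), 7.97% after harringtonine (9.63% and 5.57%) and 5.62% with puromycin (4.48% and 7.00%). Over all 8459 coding transcripts at the cutoff it was 4.48%, 11.5% and 15.9%. The long coding sequences therefore lay near the other transcripts with DMDA-PatA and below them with the other 2 drugs.

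Among shorter coding sequences the share fell with length for every drug. With puromycin the median went from 43.5% at 500 nt or less (705 transcripts) to 8.05% between 4 and 8 kb (598 transcripts). With DMDA-PatA it went from 7.42% to 3.59%, and with harringtonine from 35.3% to 6.44%. Above 8 kb the direction turned for DMDA-PatA and harringtonine.

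Between 8 and 10 kb (64 transcripts) the median was 3.98% with DMDA-PatA, 5.77% after harringtonine and 5.43% with puromycin. Between 10 and 12 kb (14 transcripts) it was 5.54%, 7.33% and 7.67%. From 12 to 15 kb (19 transcripts) it was 12.6%, 9.02% and 4.49%, and over 15 kb (13 transcripts) it was 20.6%, 17.3% and 6.82%. The bins above 10 kb each hold fewer than 20 transcripts.

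**Figure D1:**
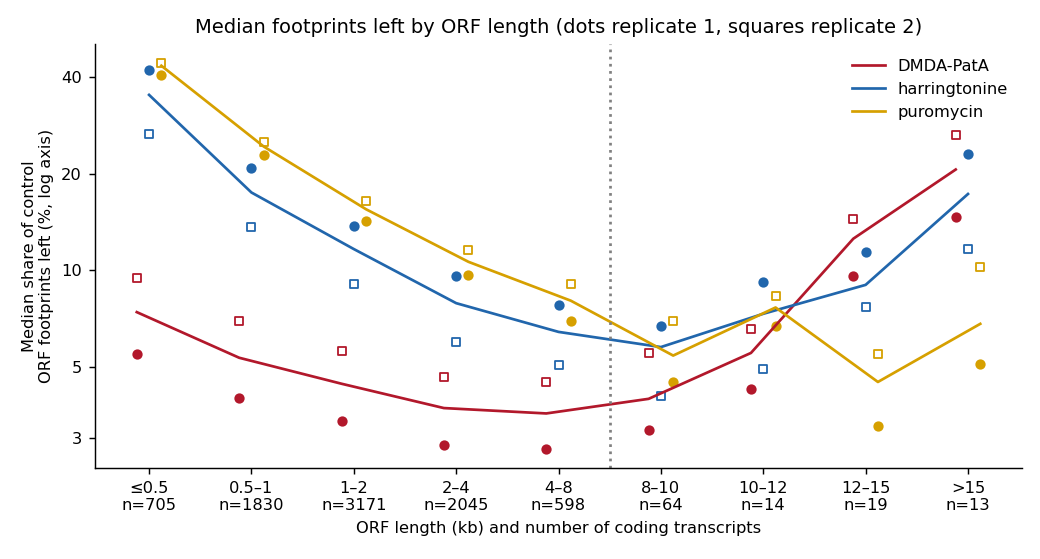
Median share of control ORF footprints left (percent, log axis) by ORF length bin (kb, with the number of coding transcripts), for each drug. Lines join the medians of the condition means, filled dots are replicate 1 and open squares replicate 2, and the dotted line marks 8 kb. To its right DMDA-PatA climbs from 3.98% to 20.6% and harringtonine from 5.77% to 17.3%, while puromycin lies between 4.49% and 7.67%.

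For each drug the median over 15 kb lay above that between 8 and 10 kb in both replicates. The order of DMDA-PatA and harringtonine over 15 kb differed between the replicates. Over 15 kb the DMDA-PatA median was 14.7% in replicate 1 and 26.5% in replicate 2, and between 8 and 10 kb it was 3.18% and 5.52%. With harringtonine the values over 15 kb were 23.1% and 11.7%, against 6.71% and 4.06% between 8 and 10 kb. With puromycin they were 5.11% and 10.3%, against 4.48% and 6.94%. The replicate medians of the 2 bins did not overlap for DMDA-PatA and harringtonine, but single transcripts of the 2 bins did. Over 15 kb single transcripts kept 6.04% to 41.7% with DMDA-PatA, and between 8 and 10 kb 0.90% to 20.4%. With harringtonine these ranges were 8.31% to 64.8% and 2.32% to 24.5%. For puromycin the median of replicate 1 over 15 kb lay below that of replicate 2 between 8 and 10 kb.

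Across the 110 transcripts, the rank correlation of ORF length with the share left was 0.59 with DMDA-PatA (0.62 and 0.55 in the replicates), 0.39 after harringtonine (0.41 and 0.39) and 0.06 with puromycin (0.04 and 0.05). Up to 12 kb (78 transcripts) it was 0.15, 0.01 and 0.09, and over 12 kb (32 transcripts) 0.46, 0.65 and 0.29, a division made after the values were seen. In the 8349 shorter coding transcripts it was -0.26, -0.52 and -0.62. These are descriptions over transcripts that share libraries and scaling, and they carry no test.

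**Figure D2:**
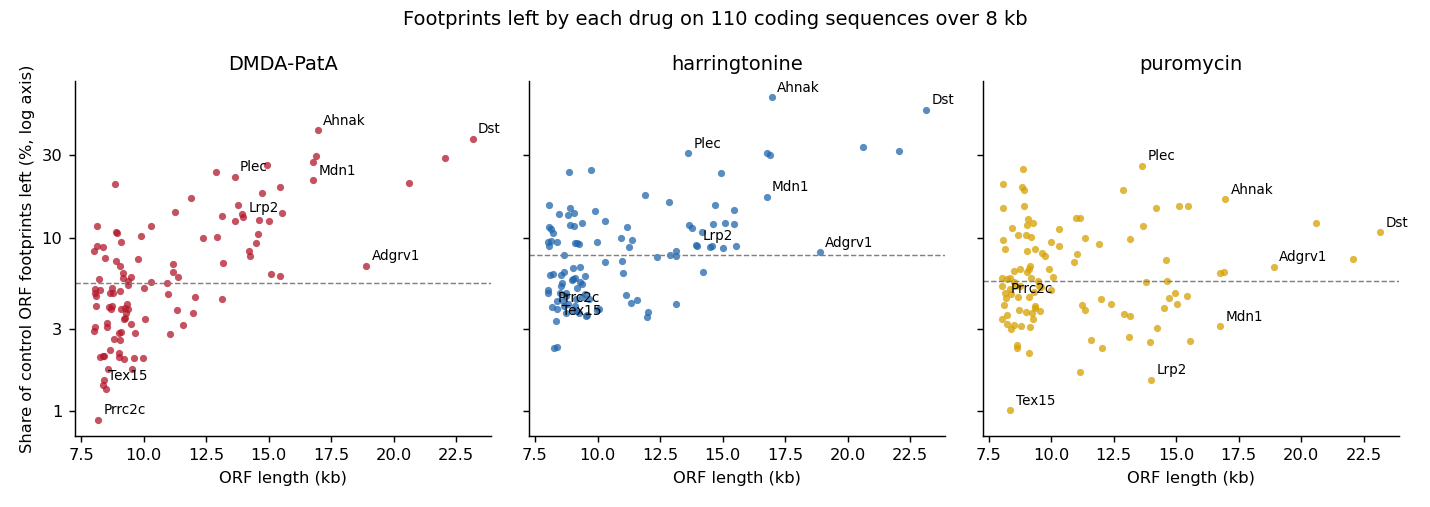
Share of control ORF footprints left (percent, log axis) against ORF length (kb) for each of the 110 transcripts, with 1 panel per drug and the median as a dashed line. DMDA-PatA reaches from 0.90% on Prrc2c to 41.7% on Ahnak, and the transcripts over 12 kb lie mostly above the median with DMDA-PatA but on both sides of it with puromycin.

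The same pattern stood inside each library, where no scaling between libraries enters. ORFs over 12 kb took 43.1% of all reads on the long coding sequences in both control libraries. They took 75.7% and 74.4% with DMDA-PatA, 65.9% and 62.8% after harringtonine and 42.2% and 41.4% with puromycin. In both transcriptome libraries they took 53.1%. The DMDA-PatA and harringtonine libraries lay above all 4 control and puromycin libraries and did not overlap each other. Without Ahnak, Dst and Macf1, left out after their values were seen, the shares were 73.4% and 70.9% with DMDA-PatA, 59.8% and 56.9% after harringtonine, 38.8% and 37.3% under puromycin, against 41.3% and 42.0% in control cells.

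**Figure D3:**
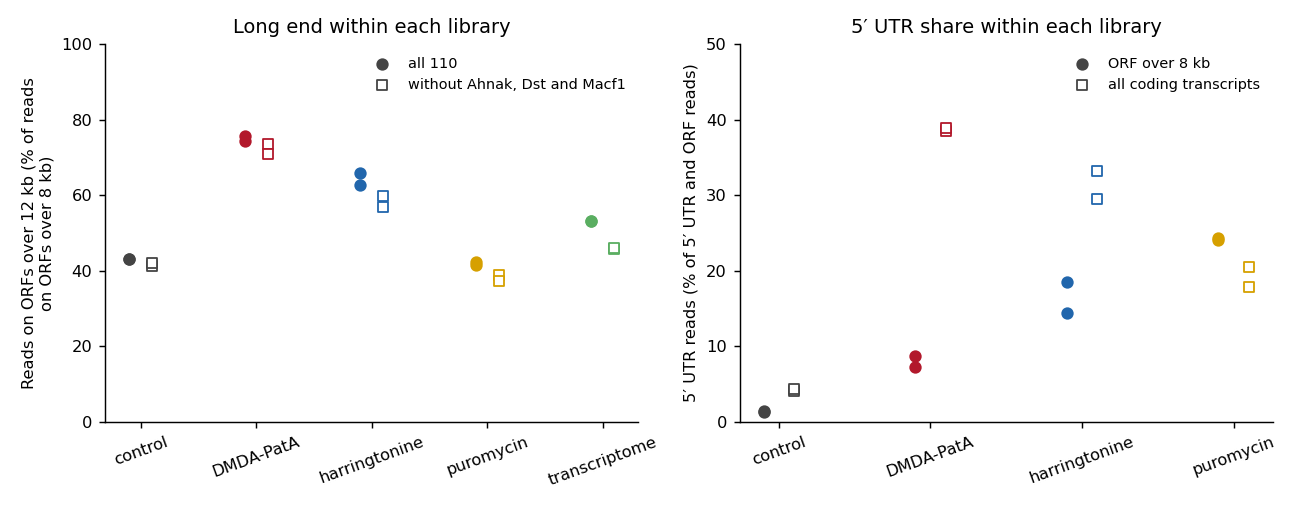
Left, reads on ORFs over 12 kb as a percentage of reads on ORFs over 8 kb in each of the 10 libraries, for all 110 transcripts (filled) and without Ahnak, Dst and Macf1 (open). Right, 5′ UTR reads as a percentage of 5′ UTR and ORF reads in the 8 footprint libraries, for the long coding sequences (filled) and all coding transcripts (open). On the left the DMDA-PatA libraries are at 75.7% and 74.4% against 43.1% in the control, and on the right they are at 7.24% and 8.68% against 38.5% and 38.8% for all coding transcripts.

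The long coding sequences as a whole held 2.47% and 2.20% of the ORF reads of all coding transcripts in the control, 4.71% and 3.92% with DMDA-PatA, 1.47% and 1.18% after harringtonine and 0.64% and 0.66% with puromycin. Their share of the library was thus above the control with DMDA-PatA and below it with the other drugs.

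The fold differences between the 3 drugs do not use the control values that chose the transcripts. The control libraries were in the same fit and entered its estimate of the spread, so the calls are not free of them. DMDA-PatA left more footprints than puromycin on 23 of the 110 and fewer on 27. Of all 12499 features, 0.432% were called higher and 67.4% lower, and 42.6% of the 54 features called higher were long coding sequences. Among the 32 ORFs over 12 kb, 20 were higher and 2 lower, and among the 78 up to 12 kb, 3 were higher and 25 lower. The 2 long ones that were lower were Hydin and Ryr1, and the 3 shorter ones that were higher were Lama5, Vps13c and Gcn1l1, where Ryr1 and Vps13c are named after their values were seen. The median log2 difference was -0.05 over the 110 and -1.78 over all features. TMM normalization moved the median over all features to -0.02 and called 2219 of the 12499 features higher and 2393 lower. Of the 110, 83 were then higher and 1 lower. These 83 were 30 of the 32 over 12 kb and 53 of the 78 up to 12 kb. Without puromycin replicate 1 the spike-in scaling gave 14 higher, and 11 were lower without DMDA-PatA replicate 1 and 12 without puromycin replicate 2.

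Harringtonine left more footprints than puromycin on 17 of the 110 (1.2% of all features were called higher) and fewer on 0 (9.94%), with 1 lower at an unadjusted p under 0.05 in edgeR and 0 in DESeq2. Over 12 kb 14 of 32 were higher, and up to 12 kb 3 of 78, namely Alms1, named after its values were seen, Bod1l and Lama5. The count of 17 rested on single libraries, being 1 without puromycin replicate 1, 5 without puromycin replicate 2, 10 without harringtonine replicate 1 and 28 without harringtonine replicate 2, and 18 were lower without harringtonine replicate 1. The median log2 difference was 0.23 over the 110 and -0.40 over all features. TMM normalization gave 44 higher and 0 lower, against 1652 and 1581 of all 12499 features.

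Between DMDA-PatA and harringtonine, which acted for the same time, DMDA-PatA left fewer footprints on 16 (52.8% of all features were called lower) and more on 0 (0.432%) by edgeR, with 0 higher at an unadjusted p under 0.05 and 0 in DESeq2. All 16 had ORFs up to 12 kb. The median log2 difference was -0.45 over the 110 and -1.36 over all features. The study's own table of transcript means carries the size factors of these drugs the other way round from the values used here, and which is right was not settled. With the factors exchanged, DMDA-PatA was higher on 22 and lower on 9, against 365 and 5535 of all 12499 features. The median shares were then 6.62% with DMDA-PatA and 6.42% with harringtonine. TMM normalization moved the median log2 difference over all features to -0.01. It gave 67 higher and 1 lower, against 1971 and 2248 of all 12499 features. Without harringtonine replicate 1 the counts were 14 higher and 5 lower, without harringtonine replicate 2 they were 0 and 53, and the number lower was 7 without DMDA-PatA replicate 1 and 10 without either control or either puromycin library.

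**Figure D4:**
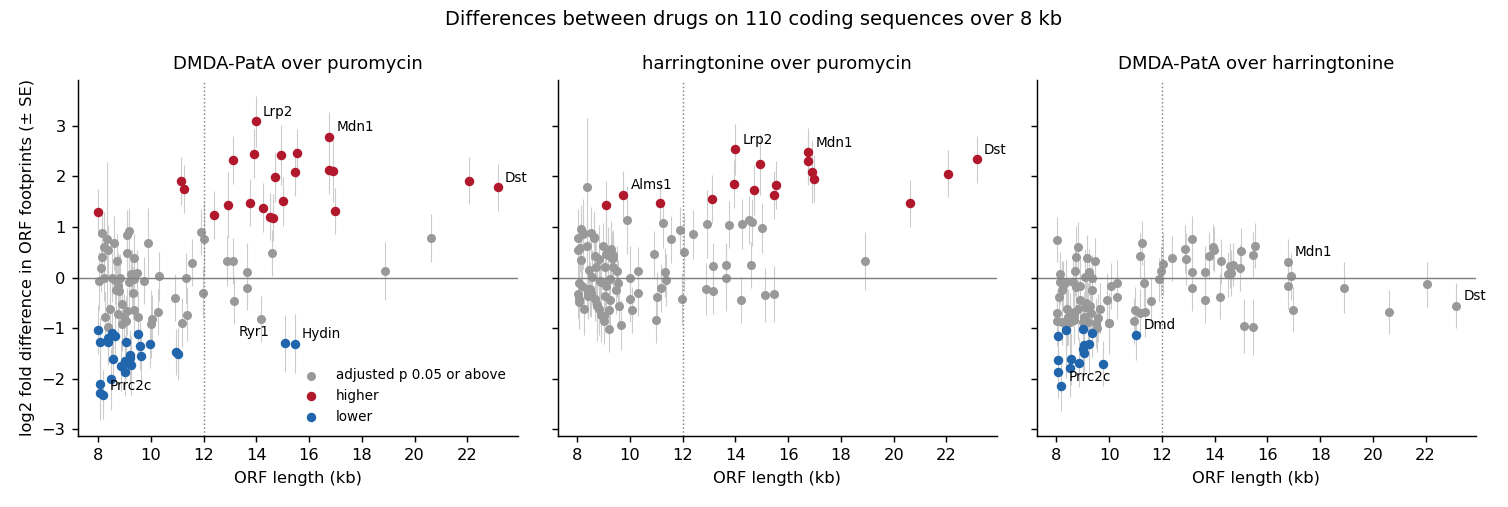
Log2 fold difference (± SE) in ORF footprints between drugs against ORF length (kb) for the 110 transcripts, on the authors' spike-in scaling. Red points were called higher and blue points lower at an adjusted p of 0.05, and the dotted line marks 12 kb. In the left panel 20 of the 32 transcripts to the right of the line are higher and 2 lower, and in the right panel the 16 lower transcripts all lie to the left of it.

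The 10 longest coding sequences differed widely among themselves. Dst encodes dystonin, a plakin that links cytoskeletal filaments, and its transcript lies at chr1:33908225-34307592 on the plus strand with 103 exons. It had 2196 and 1009.8 normalized control footprints, 410.3 and 784 with DMDA-PatA, 1260.1 and 496 after harringtonine and 153 and 193 with puromycin. Both puromycin libraries lay below all others. The share left was 37.3% with DMDA-PatA, made of 18.7% in replicate 1 and 77.6% in replicate 2 as control 2 lay below control 1 while DMDA-PatA replicate 2 lay above replicate 1. DMDA-PatA exceeded puromycin by 1.78 ± 0.46 on the log2 scale (adjusted p = 0.00031), and harringtonine exceeded it by 2.34 ± 0.47 (adjusted p = 8.0e-05).

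Macf1, a plakin that joins actin to microtubules (chr4:123349720-123684360, minus strand, 98 exons), had 2655 and 1278 control footprints, 434 and 705 with DMDA-PatA, 872 and 381 after harringtonine and 118 and 182 with puromycin. The share left was 29.0%, 31.9% and 7.61%. Puromycin was again the lowest, and DMDA-PatA and harringtonine overlapped.

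Ahnak, a giant scaffold protein found under the plasma membrane, is encoded almost wholly in a single exon (chr19:8989284-9019196, plus strand). It had 3412 and 1514 control footprints, 727 and 1326 with DMDA-PatA, 2202 and 991 after harringtonine and 368 and 454 with puromycin. Its shares were the largest of the 110 with DMDA-PatA (41.7%) and harringtonine (64.8%). In replicate 1 the DMDA-PatA share was 21.3%, below the 28.3% of Hmcn1 and the 22.4% of Kmt2d, and in replicate 2 it was 87.6%. Control 2 stood at 0.444 of control 1 for Ahnak, at 0.460 for Dst and at 0.481 for Macf1, against a median of 0.806 over the 110.

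Mdn1 (chr4:32657119-32775207, plus strand, 102 exons) encodes midasin, an ATPase that acts in assembly of the large ribosomal subunit. Its control footprints were 12423 and 10312, those with DMDA-PatA 2363 and 2522, after harringtonine 2867 and 1069.5 and with puromycin 362 and 346. The groups of DMDA-PatA and puromycin stood well apart. DMDA-PatA exceeded puromycin by 2.79 ± 0.49 on the log2 scale (adjusted p = 1.0e-07) and harringtonine exceeded it by 2.48 ± 0.48 (adjusted p = 5.0e-05).

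Kmt2d, a histone H3 lysine methyltransferase (chr15:98831672-98871204, minus strand), had 2268 and 2077 control footprints, 508 and 686 with DMDA-PatA, 948 and 402 after harringtonine and 116 and 157 with puromycin. Ubr4, a ubiquitin ligase of the N-degron pathway (chr4:139380659-139489588, plus strand), had 9057 and 7739.55 in the control, 1110.5 and 1243 with DMDA-PatA, 1018 and 502 after harringtonine and 182 and 245 with puromycin. Both kept the smallest number under puromycin, with differences from DMDA-PatA of 2.12 ± 0.47 (adjusted p = 2.5e-05) and 2.46 ± 0.48 (adjusted p = 2.0e-06). Hmcn1, the matrix protein hemicentin-1 (chr1:150562524-150993051, minus strand), had the fewest control footprints per kb of the 110 (6.57). It stood at 125 and 97.0 in the control, 35.4 and 30.8 with DMDA-PatA, 47.7 and 18.9 after harringtonine and 4.14 and 9.95 with puromycin, a difference of 2.11 ± 0.61 between DMDA-PatA and puromycin (adjusted p = 0.0013). Each puromycin value of Hmcn1 rests on fewer than 10 reads.

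Syne2, the nuclear envelope protein nesprin-2 (chr12:75818318-76110926, plus strand, 115 exons), had 406 and 245 control footprints, 58.7 and 75.5 with DMDA-PatA, 152 and 65.1 after harringtonine and 45.5 and 33.6 with puromycin. Harringtonine exceeded puromycin by 1.47 ± 0.47 (adjusted p = 0.025), a call lost without either control library, either puromycin library or harringtonine replicate 1, and the difference of 0.78 ± 0.47 between DMDA-PatA and puromycin did not pass the threshold (adjusted p = 0.13).

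Not all of the longest kept a large share with DMDA-PatA. Adgrv1, an adhesion G protein-coupled receptor (chr13:81095068-81633154, minus strand), had 252 and 257 control footprints, 21.5 and 13.8 with DMDA-PatA, 30.4 and 11.9 after harringtonine and 24.8 and 9.95 with puromycin. Its shares of 6.92%, 8.31% and 6.82% lay together, and all 3 drugs overlapped. Hydin, a protein of motile cilia (chr8:110266977-110610253, plus strand), had 164 and 119.7 in the control, 8.21 and 8.93 with DMDA-PatA, 20.3 and 14.0 after harringtonine and 24.8 and 18.7 with puromycin. Here DMDA-PatA was the lowest, by 1.31 ± 0.59 on the log2 scale below puromycin (adjusted p = 0.039). Ryr1, a calcium release channel of muscle, was likewise lower with DMDA-PatA than with puromycin (-1.30 ± 0.56, adjusted p = 0.031). Neither call held without DMDA-PatA replicate 1, either control library or either puromycin library, and that of Hydin was also lost without DMDA-PatA replicate 2 and in DESeq2. On TMM normalization the differences turned to 0.50 for Hydin and 0.49 for Ryr1, neither past the threshold. For Adgrv1, Hydin and Ryr1 the drug values were below 31 footprints in each library.

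**Figure D5:**
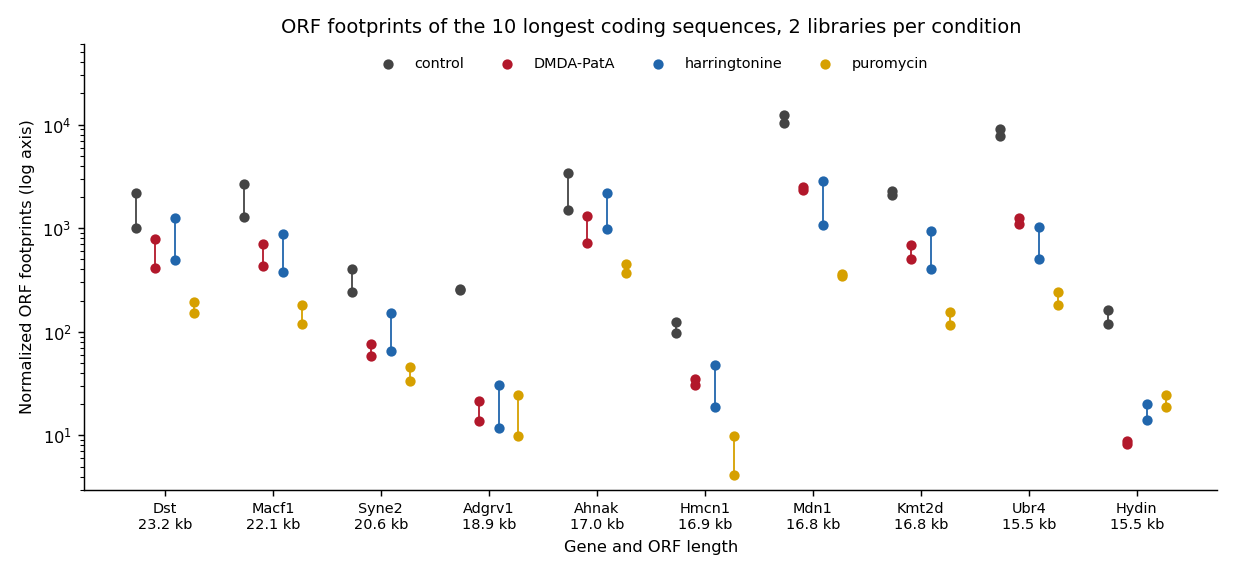
Normalized ORF footprints (log axis) in both libraries of each condition for the 10 longest coding sequences, ordered by ORF length. Points are libraries and a line joins the 2 of a condition. Puromycin is lowest for Dst, Macf1, Syne2, Ahnak, Hmcn1, Mdn1, Kmt2d and Ubr4, and DMDA-PatA is lowest for Hydin.

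The widest gap between DMDA-PatA and puromycin was on Lrp2, which encodes the endocytic receptor megalin (13980 nt). It had 3271 and 2800.1 control footprints, 397 and 405 with DMDA-PatA, 373 and 174 after harringtonine and 35.2 and 57.2 with puromycin. All 4 DMDA-PatA and harringtonine libraries stood above both puromycin libraries. The log2 difference from puromycin was 3.09 ± 0.51 for DMDA-PatA (adjusted p = 1.1e-08) and 2.53 ± 0.50 for harringtonine (adjusted p = 5.9e-05). Its share left with puromycin, 1.52%, was among the 4 smallest of the 110, as were those of Lama5 (1.68%), a laminin chain of basement membranes, and of Bod1l (2.18%), which protects DNA replication forks.

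At the short end the order of the drugs turned. Prrc2c, a proline-rich protein of stress granules (8172 nt), had the most control footprints per kb of the 110 (1466), with 13338 and 10621 in the control, 91.5 and 123 with DMDA-PatA, 606 and 349 after harringtonine and 556 and 519 with puromycin. DMDA-PatA left 0.90%, the smallest share of the 110, and lay below harringtonine by 2.15 ± 0.48 on the log2 scale (adjusted p = 4.7e-05) and below puromycin by 2.32 ± 0.48. Tenm4, a teneurin of cell adhesion, fell from 380 and 439 to 6.94 and 4.06 with DMDA-PatA, against 18.3 and 21 after harringtonine and 20.7 and 24.9 with puromycin. Nbeal1, a BEACH domain protein of membrane traffic, had 12 and 6.49 with DMDA-PatA, 48.7 and 21.7 after harringtonine and 33.1 and 57.2 with puromycin. In both, the DMDA-PatA libraries were below all others.

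Small shares with harringtonine were found for Itpr1, a calcium channel of the endoplasmic reticulum (2.32%), and Vps13b, a lipid transfer protein (3.49%). Tex15, a germ cell protein, had 118 and 86.1 control footprints and 1.26 and 1.62 with DMDA-PatA, and its puromycin values of 2.07 and 0 rest on 1 read.

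Large shares with puromycin were found for Plec, Ash1l, Hivep1 and Col7a1. Plec, a plakin of intermediate filaments (13629 nt), had 1963 and 1092 control footprints, 260.1 and 430.2 with DMDA-PatA, 609.8 and 335 after harringtonine and 364 and 431 with puromycin. It kept 22.6%, 30.9% and 26.04%, and the 3 drugs overlapped. Ash1l, a histone methyltransferase, kept 24.9% with puromycin and 23.9% after harringtonine but 7.32% with DMDA-PatA. Hivep1, a zinc finger transcription factor, kept 20.6%, 15.5% and 4.84%, and lay lower with DMDA-PatA than with puromycin by 2.11 ± 0.59 on the log2 scale (adjusted p = 0.00091). Col7a1, the collagen of anchoring fibrils, kept 19.6% with puromycin and 20.4% with DMDA-PatA.

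The counts by role stand beside shares over all features of 0.432% higher and 67.4% lower for DMDA-PatA against puromycin, 52.8% lower for DMDA-PatA against harringtonine and 1.2% higher for harringtonine against puromycin. The 8 ubiquitin ligases, of 14 ligases and proteases listed, had a median share of 9.90% with DMDA-PatA, 8.94% after harringtonine and 3.76% with puromycin. DMDA-PatA exceeded puromycin on 5 of them and fell below it on 0, and harringtonine exceeded it on 2. The median ORF length of the 8 was 14542.5 nt, against 9423 nt over all 110.

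The 23 matrix and cell surface proteins, of 36 listed, had medians of 6.92%, 9.02% and 5.63%. On 6 of them DMDA-PatA exceeded puromycin and on 1 it fell below, and on 5 harringtonine exceeded puromycin. Hspg2, the basement membrane proteoglycan perlecan, had 15359.8 and 13354 control footprints, 1476 and 2388 with DMDA-PatA, 1466 and 803 after harringtonine and 358 and 412 with puromycin. Fat1, an atypical cadherin, had 15241 and 13565, 1999 and 2471, 2259 and 1046, and 839.6 and 759.8 in the same order. Both were higher with DMDA-PatA than with puromycin, by 2.33 ± 0.48 (adjusted p = 6.6e-06) and 1.48 ± 0.47 (adjusted p = 0.0032), the latter a call lost without puromycin replicate 2. The fibroblast marker sums given above stand beside this group, and their part in it was not tested.

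The 21 cytoskeletal, motor and mitotic proteins, of 39 listed, had medians of 5.86%, 7.93% and 6.63%, with 5 higher and 4 lower with DMDA-PatA than with puromycin and 5 higher with harringtonine than with puromycin. The 17 transcripts of the chromatin and transcription list, of 26 listed, had medians of 4.79%, 8.99% and 6.27%. DMDA-PatA exceeded puromycin on 2 of them, fell below it on 6 and fell below harringtonine on 4, Prrc2c among them, which is not known as a chromatin protein. The 13 proteins of membrane traffic and calcium channels, of 20 listed, had medians of 3.68%, 6.02% and 5.27%, with 1 higher and 4 lower with DMDA-PatA than with puromycin.

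The 4 PI3K-like kinases and relatives (Atm, Prkdc, Smg1 and Trrap, of 6 listed) had medians of 3.95%, 5.88% and 5.05%, with 1 higher and 2 lower with DMDA-PatA than with puromycin. The 5 genome maintenance proteins, of 7 listed, had medians of 5.63%, 7.74% and 5.92%, with 1 higher and 2 lower. Alms1 stands in that list but is known as a centrosome and basal body protein. Of 5 genes listed for ribosome assembly and translation control, Mdn1 and Gcn1l1 were present, and both were higher with DMDA-PatA than with puromycin. The 20 transcripts in none of the lists had medians of 3.57%, 6.50% and 6.41%. Atm, Prkdc and Trrap stand in 2 lists each, and the lists were not compared by a test.

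Control footprints per transcriptome read measure how densely ribosomes stood on an mRNA, not how many it carried. Over the 110 this ratio ranged from 0.0246 for Ahnak to 0.590 for Dmd (the muscle protein dystrophin, named after its values were seen). Its median was 0.145. Ahnak, Dst (0.0264) and Macf1 (0.0290) stood at the low end, Mdn1 (0.376) and Hydin (0.562) near the high end. The rank correlation of this ratio with the share left was -0.33 with DMDA-PatA, -0.33 after harringtonine and -0.24 with puromycin over the 110. The control footprints enter both measures. The rank correlation of the ratio with ORF length was -0.09.

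Eef2, a translation elongation factor with an ORF of 2574 nt, gives a comparison. It had 34397 and 34016 control footprints, 833 and 1420.4 with DMDA-PatA, 2482 and 1207 after harringtonine and 1689.5 and 2564 with puromycin. Its mean shares were 3.29%, 5.39% and 6.22%. In replicate 1 they were 2.42%, 7.22% and 4.91%, and in replicate 2 they were 4.18%, 3.55% and 7.54%, so puromycin left more than DMDA-PatA in both, whereas on Mdn1, Lrp2 and Ubr4 DMDA-PatA left more than puromycin in both.

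The 5′ UTR footprints did not enter the choice of transcripts and can be tested against the control. A 5′ UTR was listed for 99 of the 110, and 60 passed the filter on low counts, so the counts below are not over all of them. DMDA-PatA lowered 5′ UTR footprints on 22 of the 60 (28.9% of all 6712 features tested were called lower) and raised them on 4 (14.6% higher). Harringtonine raised them on 13 (34.8%) and lowered them on 9 (5.18%). Puromycin raised them on 1 (0.566%) and lowered them on 1 (0.417%), neither of which was called without either control or either puromycin library. Among the 4 raised with DMDA-PatA, Lama1, Lama5 and Hspg2 passed the filter only through drug libraries. Among the 13 raised with harringtonine, so did Lama1, Lrba, Hspg2 and Brca2. The numbers raised with these 2 drugs are therefore a description, and nothing is read from them. The median log2 change of the 60 was -1.05 with DMDA-PatA, 0.67 after harringtonine and 0.08 with puromycin, against -0.48, 0.88 and 0.07 over all features.

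TMM normalization gave 13 higher and 20 lower with DMDA-PatA, against 1714 and 1578 of all 6712 features. With harringtonine it gave 6 higher and 17 lower, against 1298 and 1338. Leaving out control replicate 1 gave 2 higher with DMDA-PatA and 6 higher and 3 lower with harringtonine. Leaving out DMDA-PatA replicate 1 gave 14 lower and leaving out DMDA-PatA replicate 2 gave 1 higher. With harringtonine, 7 were higher without control replicate 2, 5 were higher without harringtonine replicate 1 and 5 were lower without harringtonine replicate 2.

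Kmt2d fell most with DMDA-PatA, from 86.1 and 35.4 to 1.26 and 2.44 footprints on the 5′ UTR (log2 change of -4.98 ± 0.70, adjusted p = 9.6e-11). It also fell with harringtonine, to 12.2 and 10.5, whereas puromycin left 70.3 and 59.7. Vps13d, a lipid transfer protein, fell from 34.2 and 32.6 to 2.53 and 2.44 with DMDA-PatA (-3.69 ± 0.69, adjusted p = 1.5e-06) and Tenm4 from 14.1 and 10.9 to 0 and 1.62 (-3.90 ± 1.00, adjusted p = 0.00058). The ORF of Kmt2d kept 27.5% with DMDA-PatA, and the difference between its ORF and its 5′ UTR was not tested.

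Fbn2, the microfibril protein fibrillin-2, went from 48.3 and 37.2 to 5.07 and 2.10 with harringtonine, and Col12a1, a fibril-associated collagen, from 23.6 and 24.5 to 4.06 and 2.10. The log2 changes were -3.60 ± 0.68 for Fbn2 (adjusted p = 2.9e-06) and -2.98 ± 0.74 for Col12a1 (adjusted p = 0.00042), and in both the harringtonine libraries lay below the control libraries.

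Brca2, a recombination protein, rose with harringtonine from 3.54 and 5.44 to 72.0 and 53.9 (log2 change of 3.74 ± 0.65), while DMDA-PatA left 4.42 and 9.74. Both control libraries held fewer than 10 reads of Brca2, so it passed the filter on low counts through drug libraries. Its call is not used as a test. Lrba, a BEACH domain protein, had 2.36 and 3.63 in the control and 25.4 and 24.5 with harringtonine (log2 change of 2.98 ± 0.76). The 5′ UTR of the laminin gene Lama1 had 0 reads in both control libraries. Against a floor of 3 reads over the group, DMDA-PatA with 6.31 and 14.6 footprints was at least 6.47-fold higher, and harringtonine with 10.1 and 8.40 was at least 5.93-fold higher. Lama5, also at 0 in the control, had 9.47 and 8.93 with DMDA-PatA, at least 6.01-fold higher. Lama1, Lama5 and Lrba passed the filter on low counts only through drug libraries in which they were high, so their calls are not used as tests. Hspg2 rose with DMDA-PatA from 1.18 and 6.35 to 13.9 and 30.0 (2.41 ± 0.71), a call lost without control replicate 1 or DMDA-PatA replicate 2. Hspg2 likewise passed the filter only through drug libraries in which it was high, so its call is not used as a test. The 4th that rose was Ranbp2, a nuclear pore protein, named after its values were seen.

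Ahnak had 5′ UTR footprints of 358 and 174 in the control, 204 and 370.1 with DMDA-PatA, 497 and 314 after harringtonine and 631 and 1180.0 with puromycin. It rose with puromycin (1.77 ± 0.45, adjusted p = 0.015), where both libraries lay above all others. In the puromycin libraries it held 17.2% and 29.7% of all 5′ UTR reads on the long transcripts.

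As a share of the 5′ UTR and ORF reads of these transcripts, the 5′ UTR held 1.31% and 1.39% in the control, 7.24% and 8.68% with DMDA-PatA, 14.4% and 18.5% after harringtonine and 24.3% and 24.1% with puromycin. For all coding transcripts the shares were 4.02% and 4.28%, 38.5% and 38.8%, 29.4% and 33.1%, and 20.5% and 17.8%. The long transcripts thus lay below all coding transcripts except with puromycin. A longer ORF takes a larger part of such a sum. In the 2 transcriptome libraries the 5′ UTR likewise held 0.554% and 0.520% on the long transcripts, against 4.17% and 3.96% for all coding transcripts. The part of ORF length in the gap was not tested. Without Ahnak, left out after its values were seen, the shares of the long transcripts with puromycin were 21.5% and 18.8%.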

How the data were processed

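Ribosome profiling libraries (4 conditions, 2 libraries each) and 2 transcriptome libraries were analysed. Per the methods of the study and the labels, the authors sequenced on a SOLiD instrument, aligned with LifeScope to mm10 (GRCm38), kept unique matches, used Picard 1.38, chose 1 transcript per gene and counted reads per region. The deposited values are a signal: reads divided by a size factor, from spike-in reads for the footprints. In each library 100% of the values per region equalled a whole number of reads within 0.01 reads, so whole reads and size factors were recovered and tested.

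Genes came from GENCODE M21, and 195 transcripts were unmatched. Differences were tested by the quasi-likelihood method of edgeR (4.0.16, on R 4.3.3 and limma 3.58.1) for features reaching 10 reads in 2 or more libraries, with Benjamini-Hochberg adjustment over all of them and an adjusted p of 0.05, with the 8 footprint libraries in 1 fit on the spike-in size factors. The test was first run on simulated counts with known changes. Shares, medians and figures were made in Python 3.11.15 (pandas 2.3.3, numpy 2.4.6, scipy 1.17.1, matplotlib 3.10.9). DESeq2 1.42.0 was an alternative.

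The named transcripts were the 10 longest, the 4 with the largest and smallest share left per drug (on the same side of the median in both replicates), the 3 largest changes per test and direction (same way in both replicates), the 4 with the most and 2 with the fewest control footprints per kb, those next to the cutoffs, and Eef2. The transcripts, the gene lists and the tests were chosen with earlier results of these data known. Start codon sequences are from GRCm38 with M21. A few transcripts that this rule names are not reported here.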

Additional observations from a re-analysis of the deposited data

How the results depend on the processing

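The puromycin libraries limit the precision, with 10 reads or fewer on 25 and 12 of the 110 transcripts. Several directions turned. The median log2 difference of DMDA-PatA from harringtonine went from -0.45 to 0.94 on TMM, 0.06 with exchanged factors and 0.17 without harringtonine replicate 1, and that of harringtonine from puromycin went from 0.23 to -0.06 with exchanged factors and -0.28 without harringtonine replicate 1. On TMM and DESeq2 size factors Hydin (0.50 and 0.51) and Ryr1 (0.49 and 0.50) turned for DMDA-PatA against puromycin, as did Dst (1.93 and 2.00) and Ahnak (2.20 and 2.27) for harringtonine against control, and Ahnak was at 0.076 without control replicate 1 and -1.31 without harringtonine replicate 1. TMM and DESeq2 size factors, set on the reads of each library in place of the spike-ins, raised the numbers higher between drugs. DMDA-PatA exceeded harringtonine on 67 (lower on 1) under either, and puromycin on 83 (lower on 1) under either. Harringtonine exceeded puromycin on 44 (TMM) or 45. Over all 12499 features the numbers higher in the same order were 1971, 2219 and 1652 (TMM) or 1963, 2268 and 1730. On the 5′ UTR these size factors gave 13 higher with DMDA-PatA under either. They gave 6 (TMM) or 8 higher and 17 (TMM) or 16 lower with harringtonine, and 2 higher and 2 lower with puromycin. Over all 6712 features DMDA-PatA was higher on 1714 (TMM) or 1771. Harringtonine was higher on 1298 (TMM) or 1365 and lower on 1338 (TMM) or 1275. Puromycin was higher on 121 (TMM) or 117 and lower on 159 (TMM) or 176. Exchanging size factors between the DMDA-PatA and harringtonine libraries gave 22 higher and 9 lower between these drugs (365 and 5535 over all features). It gave 15 lower for harringtonine against puromycin (4694 over all features) and 9 higher on the 5′ UTR with DMDA-PatA (1292 over all features). Asking for 50 reads gave 1 higher and 10 lower on the 5′ UTR with DMDA-PatA and 4 lower with harringtonine. The cause of these moves was not tested, apart from the fewer features at 50 reads.

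With equal total ORF reads in place of spike-ins the median shares were 116.7% (DMDA-PatA), 51.4% (harringtonine) and 30.9% (puromycin). On the spike-in scaling the DMDA-PatA median for ORFs over 10000 nt was 11.1%. The rank correlation with length for DMDA-PatA was 0.15 up to and 0.46 over 12000 nt. For harringtonine it was 0.44 at 300 control footprints, 0.36 at 100 in each control library, 0.0080 up to and 0.65 over 12000 nt, 0.34 without Ahnak, Dst and Macf1, and 0.47 with 20 reads in each drug library. For puromycin the same settings gave 0.038, 0.036, 0.093, 0.29, 0.012 and 0.10. The divisions at 12000 nt, the omission of the 3 genes and the 20 reads were chosen after seeing the data.

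With the replicate block harringtonine exceeded puromycin on 11, DMDA-PatA differed from puromycin on 22 higher and 24 lower and from harringtonine on 0 higher and 11 lower, and puromycin raised 0 5′ UTRs. The labels give only a replicate number. Deviations of same-numbered libraries correlated by -0.04 to 0.19 over 2187 transcripts, which cannot tell whether these libraries were handled together.

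Leaving out 1 library at a time, DMDA-PatA against harringtonine gave 0 to 14 higher and 5 to 53 lower, DMDA-PatA against puromycin 14 to 28 higher and 11 to 34 lower, and harringtonine against puromycin 1 to 28 higher and 0 to 18 lower. On the 5′ UTR the ranges were 1 to 4 higher and 14 to 23 lower (DMDA-PatA), 5 to 17 higher and 3 to 10 lower (harringtonine) and 0 to 1 higher and 0 to 1 lower (puromycin). The median shares ranged from 4.33% to 7.16%, 4.97% to 10.5% and 4.48% to 7.00%, and the rank correlations from 0.55 to 0.62, 0.39 to 0.41 and 0.030 to 0.083. Where 1 library was left alone in a condition, it was assumed to vary like the others. Of the single transcripts' results under all alternatives, 515 kept direction and side of the threshold, 42 kept the direction but were no longer past it, 12 came to pass it and 9 turned. The counts, median shares and rank correlations were less stable. Under the alternatives, 181 of their values stayed within a set margin of the main value and 86 moved beyond it.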
